A study of Saccharomyces cerevisiae with 16 samples.

Results

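The 10 genes described here are the parts of yeast that sense glucose, carry that signal to promoters and phosphorylate the sugar: the sensor genes *SNF3* and *RGT2*, the corepressor genes *MTH1* and *STD1*, the repressor genes *RGT1*, *MIG1* and *MIG2*, and the hexose kinase genes *HXK1*, *HXK2* and *GLK1*. They were found by their symbols in the annotation of the arrays' probe sets. Each of the 10 was read by 1 probe set, out of 5498 probe sets annotated to 5449 *S. cerevisiae* genes. Intensities are given on the log2 scale, so that a difference of 1 is a doubling, and levels are compared between arrays for 1 gene at a time, because 2 probe sets need not bind their targets alike.

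The 16 arrays covered 8 conditions with 2 replicate arrays each, and p-values measure only the spread between such arrays. Strain S288c (BY4742, MATα, carrying his3, leu2, lys2 and ura3 deletions) held either *MSS11* on the high-copy 2μ plasmid YEpLac195 (2μ-*MSS11*) or the empty plasmid (wild type). Strain Σ1278b (MATα in the labels and MATa in the study's strain list, ura3-52 with trp1, leu2 and his3 disruptions) was grown in the same way with 2μ-*MSS11*, as an *mss11* deletion with the empty plasmid, and as wild type with the empty plasmid. The paper gives the deletion as *mss11*Δ::*LEU2*, so the *mss11* strain also carries a *LEU2* marker that its wild type lacks. A separate set of Σ1278b arrays holds cells titled *FLO8* overexpressed, cells titled *flo8* deleted and a wild type called wild type b here. *MSS11* and *FLO8* encode transcription factors needed for flocculation and filamentous growth. The study asked which genes respond to altered *MSS11* in both strains. On these arrays *FLO8* was manipulated in Σ1278b only, but the paper states that S288c itself carries a nonsense mutation in *FLO8*. All cultures were in synthetic medium with 2% glucose at 30 °C; the labels place the harvest in early stationary phase and the methods place it in exponential growth.

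Glucose reaches these genes by 2 routes. In the first, the membrane sensors Snf3 and Rgt2 bind glucose outside the cell, which leads to phosphorylation and breakdown of Mth1 and Std1, so that the repressor Rgt1 leaves the promoters of the hexose transporter (*HXT*) genes. In the second, high glucose keeps the kinase Snf1 inactive, and the repressor Mig1 then holds genes for other carbon sources shut. Mig2 is a related repressor of such genes. Hxk1, Hxk2 and Glk1 add phosphate to glucose on entry. Hxk2 predominates during growth on glucose, while *HXK1* and *GLK1* are known to be repressed by glucose and to be higher when it runs short.

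*MSS11* itself read 13.50 and 13.58 in Σ1278b with 2μ-*MSS11*, 3.01 and 3.03 in *mss11*, and 7.50 and 8.34 in its wild type. In S288c it read 13.27 and 12.37 with 2μ-*MSS11*, against 8.87 and 8.87 in the wild type. *FLO8* read 15.71 and 12.90 on the arrays labelled *FLO8* overexpressed and 11.06 and 11.16 on those labelled *flo8* deleted, against 11.59 and 11.63 in wild type b, so its signal was not lost where the title says that the gene was deleted. In all, 3 sets of arrays can be told by their lowest intensity, and whether they were normalized together is not stated, so levels set across them carry that limit. The replicate arrays of S288c with 2μ-*MSS11* stood apart from each other: 29.3% of annotated probe sets differed by more than 1 on the log2 scale, against 0.0728% to 3.22% for the other 7 conditions. The median of 7 a-specific mating genes, which an α strain should not express, was 9.56 and 4.73 on the S288c arrays with 2μ-*MSS11*. It was 10.94 and 11.11 on the S288c wild-type arrays, against 3.27 or less on every Σ1278b array. The median of 4 α-specific genes was between 12.30 and 13.70 on the Σ1278b arrays. On the S288c arrays it was high as well, at 13.18 and 14.22 with 2μ-*MSS11* and 14.78 and 14.91 in the wild type, so these arrays carried both signals. The part of these mating genes in the results below was not tested. Each value is an average over a culture, in which fewer cells that express a gene and less of its RNA per cell cannot be told apart.

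The 10 genes were all well above background. Their lowest log2 intensity on any array was 7.79 (*SNF3*, S288c wild type), while the 95th percentile of probe sets for another organism lay between 2.07 and 2.18.

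**Figure D1:**
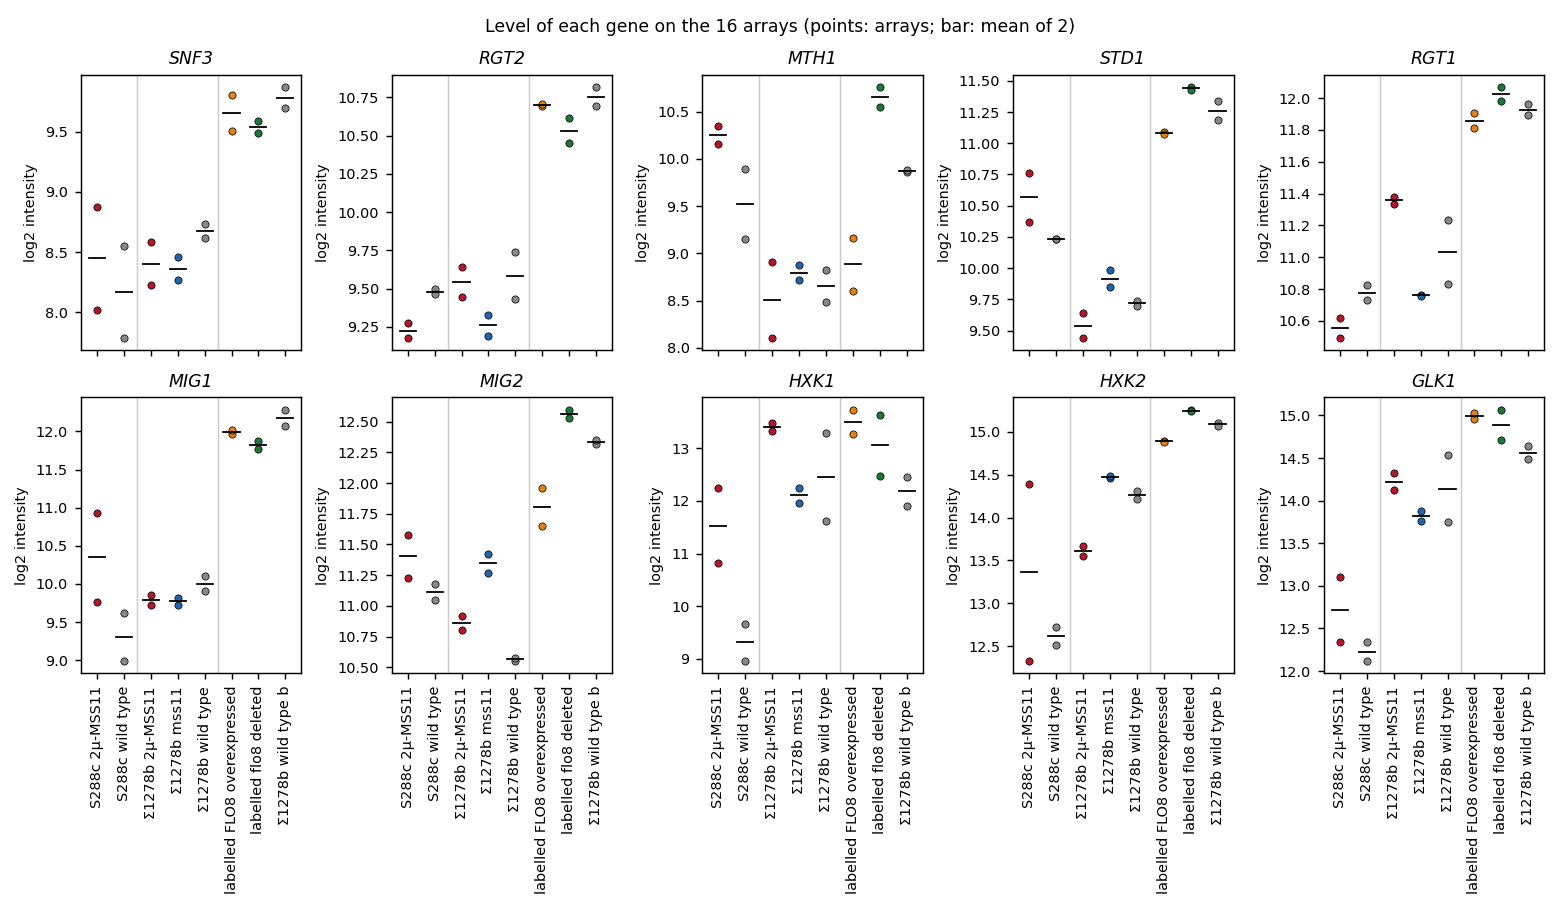
Log2 intensity of each of the 10 genes (y axis, 1 panel per gene with its own scale) in the 8 conditions (x axis), with 1 point per array and a bar at the mean of 2 arrays; grey lines part the 3 sets of arrays. The S288c wild-type arrays have the lowest *HXK1*, 8.96 and 9.66, and the right-hand set of Σ1278b arrays sits higher for most genes.

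The sensor genes moved little within a strain. *SNF3*, the sensor of low glucose, read 8.02 and 8.87 in S288c with 2μ-*MSS11* and 7.79 and 8.55 in its wild type, with overlapping arrays. In Σ1278b it read 8.22 and 8.59 with 2μ-*MSS11* and 8.27 and 8.46 in *mss11*, against 8.61 and 8.73 in the wild type, which was the highest of the 3. *RGT2*, the sensor of high glucose, read 9.27 and 9.18 in S288c with 2μ-*MSS11*, against 9.49 and 9.46 in the wild type, a difference of -0.25 (SE 0.12, limma adjusted p = 0.149). In Σ1278b it read 9.45 and 9.64 with 2μ-*MSS11*, 9.19 and 9.33 in *mss11* and 9.43 and 9.74 in the wild type, so that *mss11* lay below the others without passing the test. Neither sensor gene passed the threshold of 0.05 in any comparison within a strain and set of arrays.

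*MTH1* and *STD1* encode related corepressors that act with Rgt1. On the arrays labelled *FLO8* overexpressed, *MTH1* read 8.60 and 9.16, on those labelled *flo8* deleted it read 10.55 and 10.76, and in wild type b it read 9.86 and 9.88. The 3 groups did not overlap and wild type b lay in between. *MTH1* was 3.41-fold lower on the arrays labelled *FLO8* overexpressed than on those labelled *flo8* deleted (log2 difference -1.77, SE 0.31, limma adjusted p = 0.0328). Against wild type b neither difference passed: it was -0.99 for the arrays labelled *FLO8* overexpressed (adjusted p = 0.9999, unadjusted p = 0.0100) and 0.78 for those labelled *flo8* deleted (adjusted p = 0.812, unadjusted p = 0.0305). *STD1* kept the same order over a narrower range, with 11.09 and 11.07 on the arrays labelled *FLO8* overexpressed, 11.45 and 11.43 on those labelled *flo8* deleted, and 11.18 and 11.34 in wild type b. Its difference between the first 2 groups, -0.36 (SE 0.13), had an adjusted p of 0.438.

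With *MSS11* as the altered gene, neither corepressor gene passed within a strain. In S288c *MTH1* read 10.35 and 10.15 with 2μ-*MSS11*, against 9.15 and 9.90 in the wild type (difference 0.73, SE 0.31, limma adjusted p = 0.120). In Σ1278b its arrays overlapped, with 8.11 and 8.91 for 2μ-*MSS11*, 8.87 and 8.71 for *mss11* and 8.48 and 8.83 for the wild type. *STD1* read 10.37 and 10.76 in S288c with 2μ-*MSS11*, against 10.24 and 10.23 in the wild type (0.33, SE 0.13, adjusted p = 0.0905). In Σ1278b *STD1* ran the other way, at 9.44 and 9.64 with 2μ-*MSS11* and 9.85 and 9.98 in *mss11*, against 9.74 and 9.70 in the wild type, and none of these differences passed. The strain-by-plasmid interaction, which is the response to 2μ-*MSS11* in S288c minus that in Σ1278b, was 0.51 for *STD1* (SE 0.18, adjusted p = 0.0767), which did not pass.

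*RGT1*, the DNA-binding repressor of the *HXT* genes, lay in the order of the *MSS11* dose in Σ1278b, but only the ends of that order differed by the test. It read 11.34 and 11.38 with 2μ-*MSS11*, 10.76 and 10.76 in *mss11* and 10.83 and 11.23 in the wild type. *RGT1* was 1.51-fold higher with 2μ-*MSS11* than in *mss11* (0.60, SE 0.12, limma adjusted p = 0.0152). Neither step from the wild type passed: it was 0.32 for 2μ-*MSS11* (adjusted p = 0.150) and -0.27 for *mss11* (SE 0.12, unadjusted p = 0.0449). In S288c it read 10.49 and 10.62 with 2μ-*MSS11*, against 10.82 and 10.73 in the wild type, so the arrays lay apart in the opposite direction without passing (-0.22, SE 0.12, adjusted p = 0.197). The interaction was -0.55 (SE 0.17, adjusted p = 0.0542), just short of the threshold. The arrays labelled *FLO8* overexpressed, labelled *flo8* deleted and of wild type b all read *RGT1* between 11.81 and 12.07.

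*MIG2*, one of the repressors of genes for other carbon sources, was the gene that passed in both sets of Σ1278b arrays. It read 10.80 and 10.92 with 2μ-*MSS11*, 11.42 and 11.27 in *mss11* and 10.55 and 10.58 in the wild type. The wild type was therefore the lowest of the 3, and both alterations of *MSS11* lay above it. *MIG2* was 1.40-fold lower with 2μ-*MSS11* than in *mss11* (-0.49, SE 0.13, limma adjusted p = 0.0430). Against the wild type, *mss11* was 1.72-fold higher, with a difference of 0.78 (SE 0.13) whose unadjusted p of 0.000191 became 0.131 after adjustment. On the arrays labelled *FLO8* overexpressed *MIG2* read 11.65 and 11.96 and on those labelled *flo8* deleted 12.59 and 12.53, against 12.32 and 12.35 in wild type b. It was 1.69-fold lower on the arrays labelled *FLO8* overexpressed than on those labelled *flo8* deleted (-0.76, SE 0.13, adjusted p = 0.0336), and the 3 groups again did not overlap.

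*MIG1*, which encodes the main repressor of this family, did not share that pattern. In Σ1278b it read 9.73 and 9.86 with 2μ-*MSS11* and 9.73 and 9.82 in *mss11*, against 10.10 and 9.91 in the wild type. In S288c it read 9.76 and 10.93 with 2μ-*MSS11*, against 8.99 and 9.62 in the wild type. These arrays did not overlap, and the difference of 1.04 (SE 0.32) had a limma adjusted p of 0.0531. *MIG3*, another gene of the family outside the 10, was lower in the same 2 direct comparisons as *MIG2*. It read 8.21 and 7.90 with 2μ-*MSS11* and 9.16 and 9.30 in *mss11* (-1.18, SE 0.22, adjusted p = 0.0132), and 9.11 and 9.40 on the arrays labelled *FLO8* overexpressed and 10.57 and 10.47 on those labelled *flo8* deleted (-1.26, SE 0.22, adjusted p = 0.0366). In S288c *MIG3* was also lower with 2μ-*MSS11*, at 8.81 and 9.60, against 9.92 and 10.14 in the wild type (-0.82, SE 0.22, adjusted p = 0.0363). There *MIG2* ran the other way without passing, at 11.23 and 11.58 against 11.05 and 11.18 (0.29, SE 0.13, limma adjusted p = 0.143).

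*HXK1* showed the widest range of the 3 hexose kinase genes. In S288c it read 10.81 and 12.24 with 2μ-*MSS11*, against 8.96 and 9.66 in the wild type. It was 4.64-fold higher with 2μ-*MSS11* (2.22, SE 0.62, limma adjusted p = 0.0403), and it was the only one of the 10 genes to pass there, in a comparison where 16.9% of all probe sets passed (7.26% higher and 9.6% lower). The call was lost when either wild-type array or replicate 2 of 2μ-*MSS11* was left out, with differences between 1.50 and 2.93 over all alternatives. In Σ1278b *HXK1* read 13.32 and 13.48 with 2μ-*MSS11* and 12.25 and 11.97 in *mss11*, while the wild-type arrays read 11.62 and 13.29 and spanned more than the gap between the other groups. Neither the difference from the wild type (0.95, SE 0.62, adjusted p = 0.439) nor that from *mss11* (1.29, adjusted p = 0.212) passed. *HXK1* read 13.26 and 13.73 on the arrays labelled *FLO8* overexpressed and 12.47 and 13.64 on those labelled *flo8* deleted, against 11.91 and 12.46 in wild type b, and no difference there passed.

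*HXK2*, the gene of the main hexose kinase on glucose, read 13.67 and 13.55 in Σ1278b with 2μ-*MSS11* and 14.47 and 14.48 in *mss11*, against 14.22 and 14.31 in the wild type. The 3 groups did not overlap, and replicates differed by no more than 0.12. *HXK2* was 1.58-fold lower with 2μ-*MSS11* than in the wild type (-0.66) and 1.83-fold lower than in *mss11* (-0.87), but with the spread shared over all 16 arrays (SE 0.48) the limma adjusted p-values were 0.492 and 0.277. Most of that spread came from 1 condition: S288c with 2μ-*MSS11* read 12.33 and 14.40, against 12.51 and 12.73 in the S288c wild type. A fit on the other 14 arrays, chosen after seeing the data, gave the same differences with an SE of 0.07 and adjusted p-values of 0.000665 against the wild type and 0.000166 against *mss11*; in that fit 34% and 45.4% of all probe sets passed. On the arrays labelled *FLO8* overexpressed *HXK2* read 14.90 and 14.89 and on those labelled *flo8* deleted 15.26 and 15.24, against 15.11 and 15.07 in wild type b, and the difference between the first 2 groups, -0.36, passed in the fit on 14 arrays (adjusted p = 0.0270) and not in that on 16.

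*GLK1*, the glucokinase gene, passed in no comparison within a strain and set. It read 14.32 and 14.12 in Σ1278b with 2μ-*MSS11* and 13.88 and 13.76 in *mss11*, against 13.75 and 14.54 in the wild type, whose arrays spanned both other groups. In S288c it read 13.11 and 12.34 with 2μ-*MSS11*, against 12.34 and 12.12 in the wild type (0.49, SE 0.28, limma adjusted p = 0.227). It read 14.96 and 15.03 on the arrays labelled *FLO8* overexpressed and 14.72 and 15.06 on those labelled *flo8* deleted, against 14.49 and 14.64 in wild type b, and no difference passed.

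**Figure D2:**
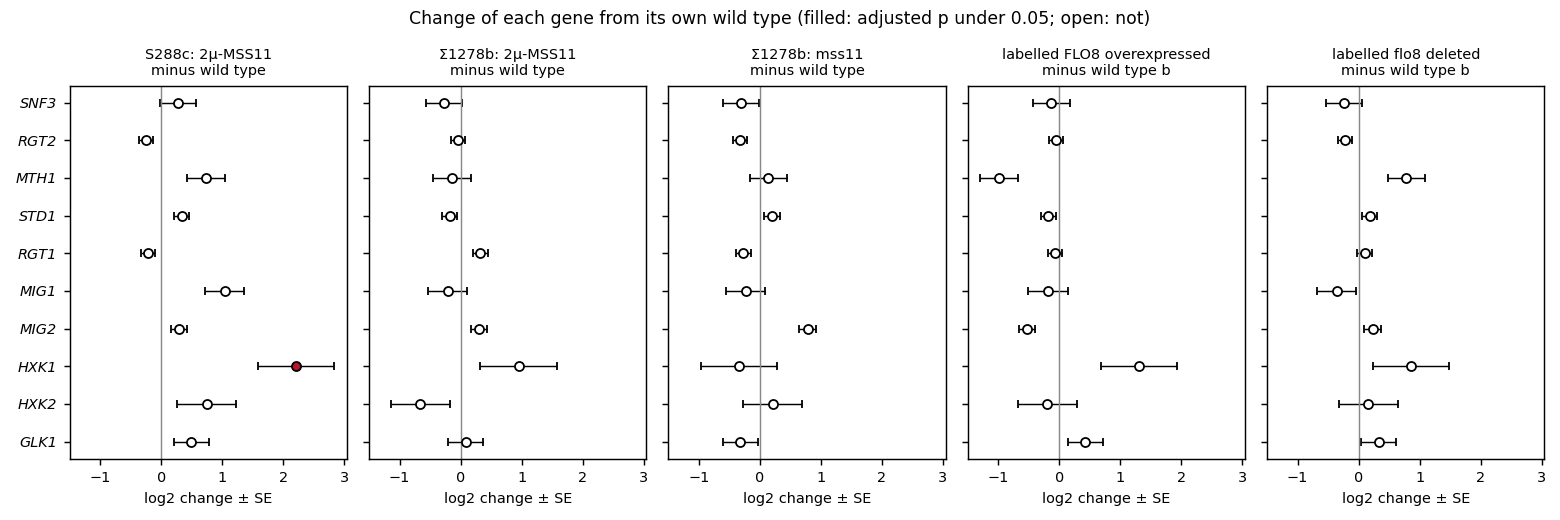
Log2 change ± SE from limma (x axis) of each of the 10 genes (y axis) from the wild type of its own strain and set of arrays, with filled points for an adjusted p under 0.05. *HXK1* in S288c with 2μ-*MSS11*, at 2.22, is the only filled point.

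Calls were few among the 10 genes. Σ1278b with 2μ-*MSS11* against its wild type gave 0 of 10 by limma (1 at an unadjusted p under 0.05, *RGT1*), where 5.22% of all probe sets passed. The *mss11* strain against its wild type gave 0 of 10 (3 unadjusted: *RGT2*, *RGT1* and *MIG2*), where 0.127% passed. The arrays labelled *FLO8* overexpressed gave 0 of 10 against wild type b (2 unadjusted, *MTH1* and *MIG2*), where 0.0546% passed, and those labelled *flo8* deleted gave 0 of 10 (1 unadjusted, *MTH1*), where 0.4% passed. The direct comparison of 2μ-*MSS11* with *mss11* gave 2 of 10, where 12.4% of all passed, and that of the arrays labelled *FLO8* overexpressed with those labelled *flo8* deleted gave 2 of 10, where 0.8% passed (0.4% lower). Each of these 4 calls was lost by limma whichever 1 of its 4 arrays was left out. Such a fit leaves 1 array in a group, so the loss does not single out these genes. Over all alternatives the 4 differences kept their direction. Between 2μ-*MSS11* and *mss11*, *RGT1* ranged from 0.56 to 0.62 and *MIG2* from -0.56 to -0.41. Between the arrays labelled *FLO8* overexpressed and *flo8* deleted, *MTH1* ranged from -2.05 to -1.49 and *MIG2* from -0.91 to -0.60. The interaction of strain and plasmid gave 0 of 10 (3 unadjusted, *RGT1*, *STD1* and *MIG1*), where 15.9% passed. Arrays of the groups did not overlap for 8 of the 10 genes in S288c with 2μ-*MSS11* against the wild type (47.5% of all probe sets), for 7 in Σ1278b with 2μ-*MSS11* (61.7%), for 7 in *mss11* (35.7%) and for 7 between 2μ-*MSS11* and *mss11* (79.5%). In the *FLO8* set they did not overlap for 7 on the arrays labelled *FLO8* overexpressed (51.3%) and for all 10 on those labelled *flo8* deleted (65.6%) against wild type b, and for 7 between these groups (61.1%). In the fit on 14 arrays the counts were 1, 1, 0, 0, 4 and 4 of 10 for the 6 comparisons within Σ1278b in the same order, beside 34%, 0.546%, 0.0546%, 2.29%, 45.4% and 5.11% of all probe sets; the added calls were *HXK2* with 2μ-*MSS11* against the wild type, *MIG2* in *mss11* (adjusted p = 0.0100), and *STD1* and *HXK2* in both direct comparisons.

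Differences within an array are free of a factor that scales all its probe sets alike, though not of processing that depends on intensity. They showed that related genes moved unequally. The log2 intensity of *HXK1* minus that of *HXK2* was -0.34 and -0.07 in Σ1278b with 2μ-*MSS11* and -2.21 and -2.52 in *mss11*, against -2.60 and -1.02 in the wild type. It shifted by 2.16 between 2μ-*MSS11* and *mss11*, which is a 4.47-fold change of the ratio, and the groups did not overlap. In S288c it was -1.52 and -2.15 with 2μ-*MSS11*, against -3.55 and -3.06 in the wild type, a shift of 1.47. On the arrays labelled *FLO8* overexpressed it was -1.64 and -1.16, against -3.19 and -2.61 in wild type b, a shift of 1.50. On the arrays labelled *flo8* deleted it was -2.79 and -1.60, which overlapped with both other groups of that set and lay 0.71 above wild type b on average. The ratio thus shifted towards *HXK1* in all 3 overexpression groups and, on average, on the arrays labelled *flo8* deleted too; no test was run on it. *MTH1* minus *STD1* was -2.48 and -1.91 on the arrays labelled *FLO8* overexpressed and -0.90 and -0.67 on those labelled *flo8* deleted, against -1.32 and -1.46 in wild type b. It overlapped between the groups of both *MSS11* sets. *SNF3* minus *RGT2* moved by no more than 0.53 in any comparison.

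**Figure D3:**
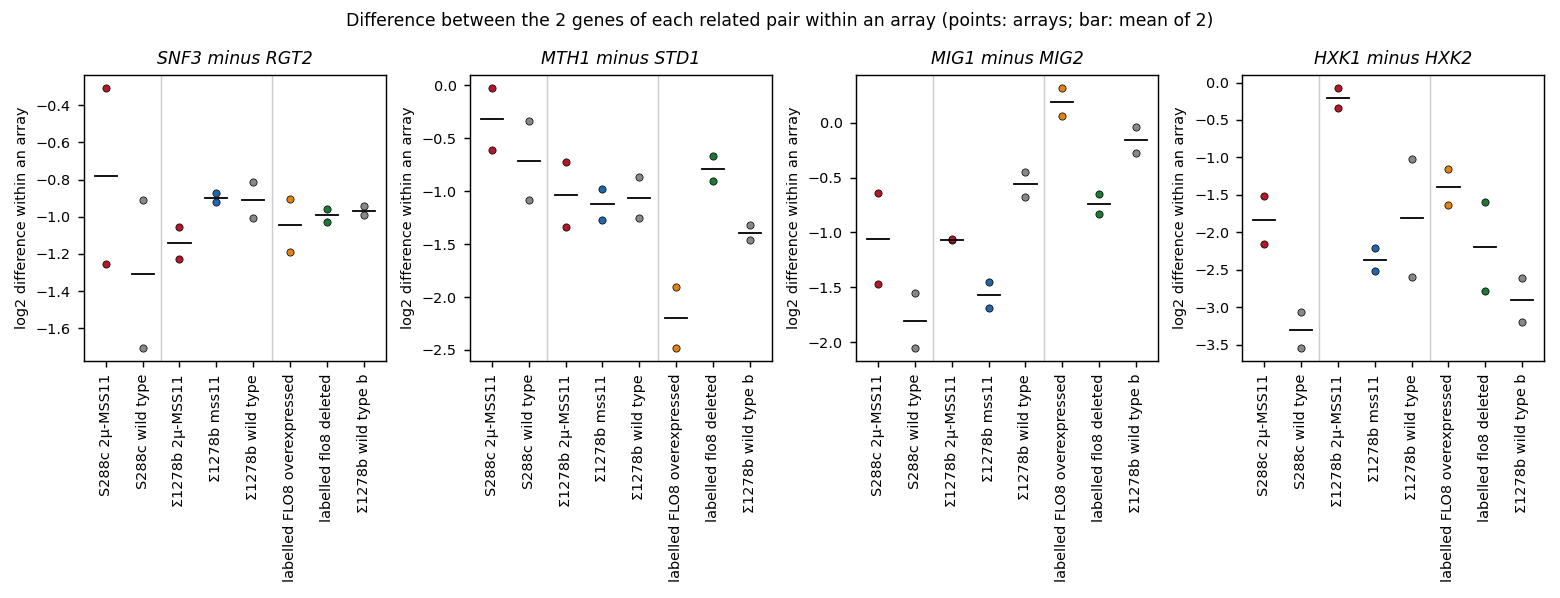
Log2 intensity of the first gene minus that of the second within each array (y axis) for 4 pairs of related genes, by condition (x axis), with 1 point per array and a bar at the mean of 2 arrays. *HXK1* minus *HXK2* is highest in Σ1278b with 2μ-*MSS11*, at -0.34 and -0.07, and *MTH1* minus *STD1* is lowest on the arrays labelled *FLO8* overexpressed, at -2.48 and -1.91.

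*HXK1* went together with genes of stationary phase and stress on the Σ1278b arrays. The median log2 intensity of 12 such genes was 10.72 and 10.83 with 2μ-*MSS11* and 9.92 and 9.33 in *mss11*, against 8.73 and 10.52 in the wild type. The wild-type array with the higher *HXK1* (13.29) is also the one with the higher median (10.52). In the other set the median was 10.81 and 10.92 on the arrays labelled *FLO8* overexpressed and 9.67 and 10.23 on those labelled *flo8* deleted, against 9.39 and 9.70 in wild type b. In S288c it was 12.51 and 10.29 with 2μ-*MSS11*, where *HXK1* read 10.81 and 12.24, and 10.94 and 11.12 in the wild type, so the array with the higher median had the lower *HXK1*. The median of 12 ribosome biogenesis genes, which mark growth, was 11.79 and 11.69 in Σ1278b with 2μ-*MSS11*. It was 12.67 and 12.64 in *mss11* and 12.69 and 12.17 in the wild type. In the *FLO8* set it was 13.83 and 13.76 on the arrays labelled *FLO8* overexpressed and 13.84 and 13.77 on those labelled *flo8* deleted. It was 13.99 and 14.02 in wild type b. In S288c it was 12.23 and 13.00 with 2μ-*MSS11*, against 12.29 and 12.03 in the wild type. Of the 12 stationary-phase and stress genes, *SPG4* and *SPG1* were higher with 2μ-*MSS11* than in *mss11* (1.45 and 1.04), *SPG4* was higher on the arrays labelled *FLO8* overexpressed than in wild type b (3.10) and than on those labelled *flo8* deleted (3.05), *SNZ1* fell in S288c with 2μ-*MSS11* (-0.87), and 0 passed in Σ1278b with 2μ-*MSS11* against the wild type. Of the 12 ribosome biogenesis genes, 4 were lower with 2μ-*MSS11* than in *mss11*, the most *DBP2* (-1.46) and *NSR1* (-1.05), 1 fell in Σ1278b with 2μ-*MSS11* (*NSR1*, -0.79), and 2 rose in S288c with 2μ-*MSS11* (*NOP58*, 0.81, and *NSR1*, 0.73). The part of growth phase in the levels of the hexose kinase genes was not tested.

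**Figure D4:**
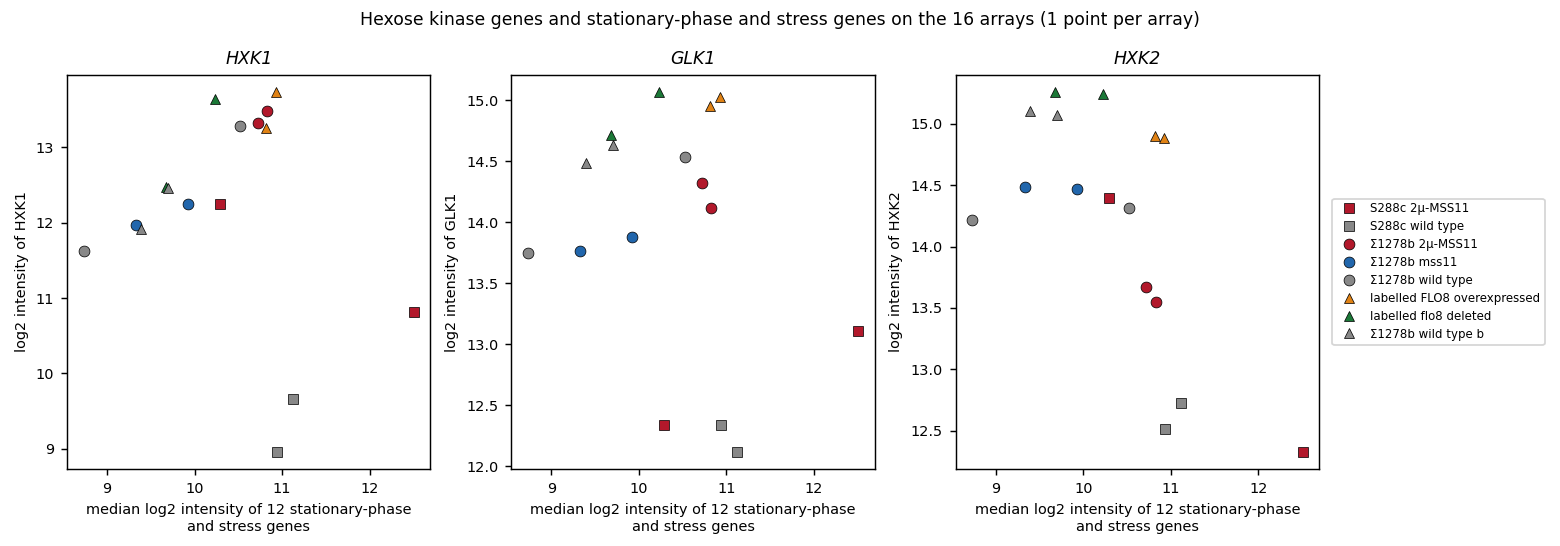
Log2 intensity of *HXK1*, *GLK1* and *HXK2* (y axis, 1 panel each) against the median log2 intensity of 12 stationary-phase and stress genes (x axis) on the 16 arrays, with 1 point per array; squares are S288c, circles and triangles the 2 sets of Σ1278b. In Σ1278b *HXK1* is lowest, 11.62, on the wild-type array with the lowest median, 8.73. The S288c wild-type arrays lie below every Σ1278b array in each panel, while replicate 2 of S288c with 2μ-*MSS11* lies within the Σ1278b range for *HXK1* (12.24) and *HXK2* (14.40).

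Of 7 measured hexose transporter genes, 3 rose in S288c with 2μ-*MSS11*, 1 rose in Σ1278b with 2μ-*MSS11*, 2 were higher with 2μ-*MSS11* than in *mss11*, and none fell in these comparisons. *HXT2*, a transporter gene used at low glucose, read 10.49 and 12.74 in S288c with 2μ-*MSS11*, against 5.41 and 7.03 in the wild type (5.39, SE 0.67, limma adjusted p = 0.00115). In Σ1278b it read 12.19 and 11.79 with 2μ-*MSS11* and 8.33 and 8.96 in *mss11*, against 11.29 and 10.96 in the wild type, and only the difference between the first 2, 3.35, passed (adjusted p = 0.0157). None of the 7 genes passed in the *FLO8* set. There *HXT2* read 13.05 and 12.88 on the arrays labelled *FLO8* overexpressed. It read 11.14 and 10.76 on those labelled *flo8* deleted, against 13.24 and 13.18 in wild type b. *HXT4* rose with 2μ-*MSS11* by 3.81 in S288c (adjusted p = 0.000327) and by 2.02 in Σ1278b (adjusted p = 0.0225). *HXT7*, whose sequence is nearly that of *HXT6*, rose by 3.37 in S288c (adjusted p = 0.00366). *HXT1* and *HXT3*, used at high glucose, passed in no comparison within a strain and set. *HXT1* read 13.75 and 13.55 in S288c with 2μ-*MSS11*, against 13.81 and 13.84 in the wild type, and 13.22 and 12.86 in Σ1278b with 2μ-*MSS11*, against 13.10 and 13.33 in the wild type. *HXT3* stayed between 14.04 and 14.55 on those 8 arrays.

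*SUC2*, the invertase gene that Mig1 represses on glucose, did not pass in any comparison within a strain and set. It read 9.23 and 10.33 in S288c with 2μ-*MSS11*, against 9.41 and 9.61 in the wild type, and 6.85 and 6.66 in Σ1278b with 2μ-*MSS11* and 6.74 and 7.06 in *mss11*, against 7.35 and 7.09 in the wild type. Of 15 measured genes that glucose represses, 1 rose and 2 fell in S288c with 2μ-*MSS11*, 3 rose and 0 fell in Σ1278b with 2μ-*MSS11*, and 6 were higher and 0 lower with 2μ-*MSS11* than in *mss11*, led by *MLS1* (4.30), *ICL1* (2.28) and *FBP1* (2.08). In S288c *HAP4*, an activator of respiration genes, rose by 1.89 (limma adjusted p = 7.92e-05), while *MLS1* (malate synthase) fell by 1.49 and *ADH2* (the alcohol dehydrogenase of ethanol use) fell by 1.08. In Σ1278b *MLS1* rose by 2.95 and *ADH2* by 1.15, and the strains' responses differed for both (difference -4.44, adjusted p = 0.00267, and -2.22, adjusted p = 0.00166). *FBP1*, of gluconeogenesis, rose by 1.96 in Σ1278b, at 4.39 and 4.88 with 2μ-*MSS11*, against 2.82 and 2.54 in the wild type. Those wild-type values lay near background, as the 95th percentile of probe sets for another organism was 2.15 and 2.16 on the same arrays.

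Other parts of the signalling routes changed in few genes. Of 9 further genes of the Snf3/Rgt2 route, *YCK2* (a casein kinase) and *GRR1* (of the ubiquitin ligase for Mth1 and Std1) fell in S288c with 2μ-*MSS11*, by 0.37 and 0.45, *YCK2* was lower with 2μ-*MSS11* than in *mss11*, and 0 passed in Σ1278b with 2μ-*MSS11*. Of 13 genes of the Snf1-Mig route, *REG1* and *GLC7*, whose products form the phosphatase that opposes Snf1, rose in S288c with 2μ-*MSS11*, by 0.51 and 0.35, and *MIG3* fell. With 2μ-*MSS11* against *mss11*, *NRG2* was higher and *MIG3* lower, and 0 passed in Σ1278b with 2μ-*MSS11* against the wild type. Of 13 measured genes of the protein kinase A route, *BCY1* (its regulatory subunit) rose by 1.18 in S288c with 2μ-*MSS11*, and *TPK3* (a catalytic subunit) fell by 0.63 in Σ1278b with 2μ-*MSS11*. With 2μ-*MSS11* against *mss11*, 1 gene of that route was higher, *GPR1*, and 3 were lower, *RAS1* (-0.90) and *TPK3* (-0.60) by the most. Of 20 measured genes of hexose phosphate use and storage sugars, 0 passed against either wild type, and 3 were higher with 2μ-*MSS11* than in *mss11*: *TSL1*, *GSY1* and *PGM2*, for trehalose, glycogen and glucose phosphate. In *mss11* against its wild type 0 genes of any of these lists passed, and between the arrays labelled *FLO8* overexpressed and *flo8* deleted *MIG3* was the only one of them to pass.

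Between the wild types of the 2 strains, the kinase genes differed by more than the other 7. *HXK1* was 8.81-fold lower in S288c than in Σ1278b (-3.14, SE 0.62, limma adjusted p = 0.00194), *GLK1* 3.77-fold lower (-1.91, SE 0.28, adjusted p = 0.000358) and *HXK2* 3.13-fold lower (-1.65, SE 0.48, adjusted p = 0.0144). The arrays of the 2 wild types did not overlap for any of the 3, nor for 9 of the 10 genes (84% of all probe sets). *MIG2* was 1.46-fold higher in S288c (0.55, adjusted p = 0.00572), *STD1* 1.43-fold higher (0.52, adjusted p = 0.00570) and *MTH1* 1.83-fold higher (0.87, adjusted p = 0.0339). These 3 higher and 3 lower genes of 10 stand beside 59.8% of all probe sets that passed, 31.8% higher and 28.1% lower. Of the genes that glucose represses, 7 of 15 were higher in S288c and 3 lower, with *ICL1* (3.18) and *SIP4* (3.11) higher and *GAL3* lower (-3.04), and *SUC2* was 2.29 higher (limma adjusted p = 0.000194). Of the hexose transporter genes 1 of 7 was higher, *HXT1* (0.61), and 2 were lower, *HXT2* (-4.90) and *HXT7* (-3.17). The median of all probe sets shifted by only 0.02, but the strains lie in different sets of arrays, the probes were not matched here to the Σ1278b sequence, and the S288c arrays carry the a-specific genes described above, so strain and set cannot be told apart.

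Wild type b and the wild type of Σ1278b have the same labelled genotype and lie in different sets of arrays. The median of all annotated probe sets was 1.21 higher in wild type b, and 82.9% of them passed, 80% as higher, as did 7 of the 10 genes, and the arrays did not overlap for 8 of the 10 (96.1% of all). Relative to that median, *MIG1* was 0.96 and *MIG2* 0.56 higher, *STD1* 0.33 higher, and *SNF3*, *RGT2* and *MTH1* within 0.10. The kinase genes lay below it, *HXK1* by -1.48, *GLK1* by -0.79 and *HXK2* by -0.39. With each array centred on its own median, 3 of the 10 genes passed, *MIG2* higher and *RGT1* and *GLK1* lower in wild type b, beside 1458 of all 5498 probe sets.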

How the data were processed

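The 16 Affymetrix Yeast Genome 2.0 arrays were read with GCOS. The authors corrected the background and normalized the values, which were deposited as linear intensity. The normalization is RMA in the methods and GCRMA in the notes of the submitters, and no version is given for either. Groups were taken from titles and source names; the plasmid labels contradict the titles on the 4 arrays with altered *FLO8*. The labels give 2 replicates per condition.

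Values were taken to log2 after a floor of 1. The arrays hold 10928 probe sets, of which 213 are controls, 1746 are named for another organism and 3471 have no name in the annotation used here; the remaining 5498 are annotated to *S. cerevisiae* genes. These entered limma 3.58.1 (R 4.3.3), fitting a mean for each of the 8 conditions to the 16 arrays together (residual degrees of freedom 8, prior 1.50), with eBayes, Benjamini-Hochberg adjustment and a threshold of 0.05. The script was tested on simulated data. The number of arrays limits the precision. Alternatives were quantile normalization, median centring, an offset of 16, a filter on dim probe sets, no organism filter, the compared arrays alone, a variance for each condition, an intensity trend with robust moderation, a replicate block, leaving out 1 array in turn and, added after seeing the data, a fit on 14 arrays and a crossed block. All members are named; of each other list, the 3 called genes with the largest change in a comparison, and always *SUC2* and *HXT1* to *HXT4*. The members and lists were chosen with earlier results of these data known. *HXT6*, *GAL4* and YLR446W were not analysed here.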

Additional observations from a re-analysis of the deposited data

How the results depend on the processing

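Of 1430 changes of the 10 genes recomputed under the alternatives, 1323 kept their side of the threshold without a reversal of a called change (33 of them changed sign while not called), 41 lost a call, 56 gained one and 10 reversed. The counts of called genes that moved by over 1.5 times are given here, beside the number of all probe sets called. Those between the wild types of the strains moved by less (5 to 8 over the alternatives). So did the other counts for wild type b (7 to 8). Without the organism filter the counts were 0 in S288c with 2μ-*MSS11* (beside 617 of 10715) and 1 for 2μ-*MSS11* against *mss11* (beside 458). For the arrays labelled *FLO8* overexpressed against those labelled *flo8* deleted the count was 0 (beside 28). With quantile normalization these were 2, 1 and 1 (beside 1013, 639 and 41 of 5498). It also gave 2 for wild type b against the wild type (beside 809) and 1 for the difference between the strains' responses (beside 925). Median centring gave 3 for wild type b (beside 1458) and 1 for the difference between the strains (beside 867). An offset of 16 also gave 1 for that difference (beside 944). With the compared arrays alone, 0 passed in S288c, where 0 of all 5498 probe sets passed, so that count is not particular to these genes. The same setting gave 5 for 2μ-*MSS11* against *mss11* (beside 2220 of 5498). A variance for each condition gave 0 in S288c (beside 22), 1 in Σ1278b with 2μ-*MSS11* (beside 480) and 6 for 2μ-*MSS11* against *mss11* (beside 2743). Against wild type b it gave 4 for the arrays labelled *FLO8* overexpressed and 1 for those labelled *flo8* deleted (beside 253 and 870). Between these 2 it gave 4 (beside 975). The fit on 14 arrays gave 1 in Σ1278b with 2μ-*MSS11* (beside 1870), 1 in *mss11* (beside 30) and 4 for 2μ-*MSS11* against *mss11* (beside 2498). Between the arrays labelled *FLO8* overexpressed and *flo8* deleted it gave 4 (beside 281). The cause of these moves was not tested.

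In wild type b against the wild type, *SNF3*, *RGT2*, *MTH1* and *RGT1* reversed to -0.088, -0.13, -0.0019 and -0.40 with quantile normalization and to -0.20, -0.15, -0.10 and -0.42 with median centring, where *GLK1* reversed to -0.89; both settings take out the shift of the median. *HXK2* in S288c with 2μ-*MSS11* was -0.29 without replicate 2 of 2μ-*MSS11* (adjusted p = 0.0375) and 1.78 without replicate 1. Leaving out 1 array gave 0 to 6 calls in S288c (298 to 3780 of all probe sets), 0 to 1 in Σ1278b with 2μ-*MSS11* (23 to 640), 0 in the comparisons of *mss11* with the wild type, of 2μ-*MSS11* with *mss11*, and of the 3 groups of the *FLO8* set with each other, 5 to 6 between the wild types of the strains, 7 to 8 for wild type b, and 0 to 5 for the difference between the strains' responses (234 to 3673). Each of these fits leaves a group with 1 array, so a count of 0 does not tell how stable a change was. With 2 replicates per condition the numbers were not taken as pairs. Deviations of same-numbered replicates correlated between 0.15 and 0.26 within the *FLO8* set and between -0.41 and 0.09 within a strain for the *MSS11* arrays. All the same, with a replicate block the counts were as without it: 1 in S288c, 2 in each direct comparison, 6 between the wild types of the strains and 7 for wild type b. With the replicate numbers of *mss11* crossed, the replicate block gave 1 call against the wild type instead of 0.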

Other observations

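The genes whose pattern over the 16 arrays was most like that of a kinase gene were picked by Pearson's r after each array was centred on its median, as a description. For *HXK1* they were *STF1* (r = 0.93, rho = 0.85), *IRC24* (0.92, 0.75) and *SNC2* (0.92, 0.81). For *HXK2* they were *ADE13* (r = 0.97, rho = 0.91), *ADE1* (0.97, 0.90), both of purine synthesis, and *AIM45* (0.97, 0.89). For *GLK1* they were *ALD4*, an aldehyde dehydrogenase gene (r = 0.98, rho = 0.97), *RPN5* of the proteasome (0.97, 0.94) and *PRB1*, a vacuolar protease gene (0.97, 0.96). The arrays share strains, sets and normalization, so the 16 points are not independent.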
